A study of Mus musculus with 12 samples.

Results

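MicroRNA genes numbered below 1000 were described in RNA that was pulled down with tagged ribosomes from the POMC lineage of the mouse hypothalamus. They were the rows of the deposited expression table whose symbol begins with Mirlet7, or with Mir followed directly by a number below 1000. Symbols ending in hg, which name host transcripts, were left out. The rule found 198 genes among the 5764 genes of the table and used no measured value. In RefSeq's annotation of GRCm38.p6, 526 genes meet the same rule, and those outside the 198 are not analysed here.

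All animals were POMCRiboTag mice, whose tagged ribosomes were captured with an anti-HA antibody from dissections enriched for the arcuate nucleus. The promoter that drives the tag and the age of the mice are not given in the labels. Every mouse was fasted for 16 h, then spent 1 h in the test room, and was housed with 1 or 2 companions. The 6 SENS libraries came from mice that could see and smell standard chow behind wire mesh for 10 min without eating it. The 6 NEO libraries came from mice shown wooden dowel pins behind mesh, an object that cannot be eaten, for the same time. The labels do not tie libraries to single mice, so each p-value below rests on the spread between libraries, part of which may be technical. No library of unselected or untagged tissue was analysed here, and neither were Pomc and Cartpt, so the labelled cell type was not checked against its defining transcripts.

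A microRNA is cut from a hairpin inside a longer primary transcript, first by Drosha with DGCR8 in the nucleus and then by Dicer in the cytoplasm. A mature strand of the hairpin is loaded into an Argonaute protein and guides it to messenger RNAs that pair with its seed, the stretch near its 5′ end. Silencing lowers translation and stability of those messages, and genes with the same seed can act on overlapping targets. In hypothalamic POMC neurons, which make the appetite-suppressing peptide α-MSH, loss of Dicer is known to lead to loss of the neurons and to obesity. The libraries here were made with a low-input kit for messenger RNA, which primes on poly(A) tails, and not with a small RNA protocol. A read on one of these genes is therefore a read over the annotated hairpin interval, and hairpin, primary transcript and host transcript were not told apart. Use of strand in the counting is not given in the sources used here, so reads of an overlapping gene on the other strand cannot be told apart either.

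Depth set the limits of every value. The authors' values are CPM, a scale on which each column has the same total, and the commonest value above 0 in each column served as the size of a single read. Counted that way, the NEO libraries held between 6901 and 11139 reads and the SENS libraries between 8619 and 18299, and a single read corresponded to 54.6 to 145 CPM. Up to 3 reads, or 164 to 435 CPM, are allowed by a 0 in a library. The read numbers are not totals of the libraries, whose depth is unknown: genes outside the table count neither in the reads nor in the CPM. The limits cover counting error only, since reads carried no molecular identifiers. Of the 420 values above 0 in the 198 genes, 94.3% were whole reads (tolerance 0.005 reads), and fractions occurred in 5 genes.

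The sequences of the genes on which the results turn are shown first, taken from RefSeq's GRCm38.p6 table, with the seed (bases 2 to 8) in capitals. A mature sequence was at hand for 179 of the 198 genes, which gave 322 arms and 273 distinct seeds. There were 34 seeds shared by 2 or more of these genes, and 66 genes shared one. The largest number of reads behind a shared seed belonged to the neuronal pair Mir132 and Mir212, whose 3′ arms share AACAGUC.
miR-132-3p: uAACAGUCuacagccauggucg
miR-212-3p: uAACAGUCuccagucacggcca
The genes Mir453 and Mir496a of the imprinted Dlk1-Dio3 domain share GGUUGCC, and their neighbour Mir377 carries GAGGUUG.
miR-453: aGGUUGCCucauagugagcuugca
miR-496a-5p: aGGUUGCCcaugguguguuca
miR-377-5p: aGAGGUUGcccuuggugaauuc
Both genes of the Mcm7 cluster that belong to the miR-17 seed family carry AAAGUGC, while the third gene of the cluster, Mir25, has another seed.
miR-93-5p: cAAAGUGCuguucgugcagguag
miR-106b-5p: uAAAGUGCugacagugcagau
miR-25-3p: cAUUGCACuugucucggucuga
In the let-7 family, 8 genes share GAGGUAG, of which Mirlet7d had the most reads. The pair Mir34b and Mir34c shares AUCACUA in the 3′ arms.
let-7d-5p: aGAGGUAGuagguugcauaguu
miR-34b-3p: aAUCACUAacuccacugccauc
miR-34c-3p: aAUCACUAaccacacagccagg
The remaining sequences belong to the genes with most reads, or to those with the smallest p in the comparison of the groups.
miR-692: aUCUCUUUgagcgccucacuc
miR-568: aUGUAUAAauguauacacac
miR-191-5p: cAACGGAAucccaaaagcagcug
miR-677-5p: uUCAGUGAugauuagcuucuga
miR-137-3p: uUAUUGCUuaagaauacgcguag
miR-423-5p: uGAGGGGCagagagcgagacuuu
miR-341-3p: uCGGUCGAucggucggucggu
miR-758-3p: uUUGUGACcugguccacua

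Since the reads lie over whole hairpins, the hairpins of the leading genes are given as well, with the annotated mature strands in capitals. Mir132 (chromosome 11, 75173682 to 75173747, plus strand) and Mir212 (chromosome 11, 75173388 to 75173478, plus strand) lie 203 bases apart.
Mir132 hairpin: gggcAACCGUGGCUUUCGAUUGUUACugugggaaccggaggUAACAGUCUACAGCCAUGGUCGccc
Mir212 hairpin: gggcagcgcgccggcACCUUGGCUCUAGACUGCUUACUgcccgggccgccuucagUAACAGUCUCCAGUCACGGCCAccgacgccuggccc
Mir377 hairpin: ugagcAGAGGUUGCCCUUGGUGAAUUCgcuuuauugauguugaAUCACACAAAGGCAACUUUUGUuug
Mir568 hairpin: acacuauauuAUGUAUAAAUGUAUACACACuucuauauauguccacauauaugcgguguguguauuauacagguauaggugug
Mir692-1 hairpin: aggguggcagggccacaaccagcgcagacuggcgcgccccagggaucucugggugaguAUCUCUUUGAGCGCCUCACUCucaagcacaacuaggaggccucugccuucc
The Mir568 hairpin is the richest in A and U of these 5, with a GC content of 31.3%, and the Mir212 hairpin the richest in G and C, with 69.2%. GC content did not separate detected from undetected genes. Its median was 48.3% in the 46 genes at 0 with a hairpin sequence, 48.5% in the 103 with fewer than 10 reads and 48.8% in the 21 with 10 or more.

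Most microRNA genes were at or near the limit of detection. Of the 198 genes, 57 (28.8%) were at 0 in all 12 libraries and 44 had at most 1 read in all, while 22 had 10 or more. The median was 1 read per gene over all libraries. A further 63 genes were above 0 in 1 library, 56 in 2 to 5, 15 in 6 to 9 and 7 in 10 or more, of which 2 were above 0 in all 12. Reads occurred in both groups for 63 genes, in NEO alone for 28 and in SENS alone for 50, and SENS had the larger total of reads. Over the whole table, 528 of 5764 genes had reads in NEO alone and 1168 in SENS alone. In 79 of the 141 genes above 0, over 50% of the reads came from a single library, beside 2456 of 5143 over the whole table.

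The remaining small RNA genes of the table were detected more often. Of the 285 microRNA genes numbered 1000 and above, 67 (23.5%) were at 0 in every library and the median was 2 reads. Of the 98 small nucleolar RNA genes, 10 (10.2%) were at 0 and the median was 9 reads, the same median as over the whole table, where 10.8% were at 0. These shares are descriptions of the table and were not tested.

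The 198 genes together held 999 reads, 0.770% of the reads in the table. Mir692-1 and Mir568 held 20.6% of these reads, and the 8 genes with most reads held 42.9%. The number of genes above 0 per library was 46, 48, 24, 19, 21 and 21 in NEO 1 to 6 and 23, 46, 47, 29, 59 and 37 in SENS 1 to 6. The means were 29.8 ± 13.4 and 40.2 ± 13.2 (SD, n = 6 each), so the difference was smaller than the spread within a group. At an equal 6000 reads per library the expected numbers were 23.6 ± 8.19 and 25.6 ± 7.39 (SD, n = 6 each).

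Summed levels of the 198 genes varied among libraries of the same group far more than between the groups. They were 9606, 10346, 8069, 5686, 5496 and 4688 CPM in NEO 1 to 6 and 4369, 6883, 8824, 6621, 12176 and 7020 CPM in SENS 1 to 6. The NEO mean was 7315 ± 2361 CPM and the SENS mean 7649 ± 2633 CPM (SD, n = 6 per group), a difference of 334 CPM. The direction of that difference changed with the libraries: SENS minus NEO was −572 CPM without SENS 5, −192 CPM without NEO 6 and −30.1 CPM without NEO 5. The library numbers in the labels fall into 3 ranges. SENS minus NEO was −5237 CPM in the lowest range, with 1 library per group, −591 CPM in the middle range, with 3 per group, and 4506 CPM in the highest, with 2 per group.

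The libraries with the highest sums were SENS 5, NEO 2, NEO 1 and SENS 3. Small nucleolar RNA genes, which are not messenger RNAs either, were also high there, at 33560 CPM in SENS 5, 19031 in NEO 2, 17543 in SENS 3 and 15603 in NEO 1. SENS 6 was as high for small nucleolar RNA genes, at 15971 CPM, while its microRNA sum of 7020 CPM was below the group mean. The lowest summed level of these genes was 4782 CPM, in NEO 5. The part of this library pattern in the microRNA values was not tested.

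**Figure D1:**
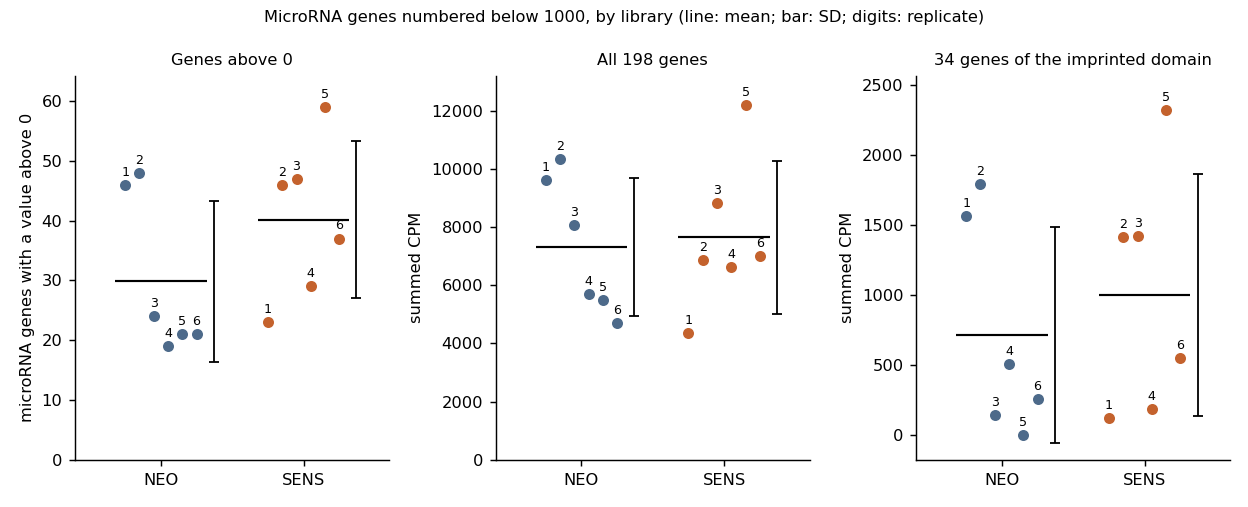
Number of microRNA genes numbered below 1000 above 0 (left), summed CPM of all 198 genes (middle) and summed CPM of the 34 genes of the imprinted Dlk1-Dio3 domain (right), with 1 point per library labelled by replicate, the group mean as a line and its SD as a bar. NEO and SENS overlap in all 3 panels, and SENS 5 and NEO 2 are the highest libraries of their groups in each.

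Mir692-1 was the gene with most reads, 112 over all libraries, and the most even. It lies on chromosome 17 (6895229 to 6895337, minus strand), 602 bases from the long noncoding RNA gene 1700122H20Rik. Its values lay between 561 and 1319 CPM in NEO and between 619 and 1127 CPM in SENS, above 0 in all 12 libraries. The means were 974 ± 284 CPM and 852 ± 196 CPM (SD, n = 6 each), and the groups overlapped over nearly their whole range. Its coefficient of variation over all libraries, 26.4%, was the lowest among the 22 genes with 10 or more reads. In 10 of the 12 libraries its value was not a whole number of reads, the form that arises where a read is divided among several matching places. Its level is thus uncertain, since copies elsewhere in the genome could share these reads.

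Mir568 followed with 94 reads. It lies on chromosome 16 (43640655 to 43640737, plus strand), within the span of Tigit on the opposite strand and 6262 bases from Zbtb20, which encodes a transcription factor of brain development. Its reads were 10, 8, 4, 2, 4 and 2 in NEO 1 to 6 and 2, 15, 14, 6, 20 and 7 in SENS 1 to 6. The highest libraries were SENS 5, SENS 2, SENS 3 and NEO 1, and the lowest were found in both groups. The NEO mean was 558 ± 277 CPM and the SENS mean 808 ± 526 CPM (SD, n = 6 per group). Tigit, an immune receptor of T and NK cells, held 17.2 reads, of which 13.2 were in SENS, and both genes were above 0 in 5 libraries.

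Mir191 and Mir677 lie within protein-coding genes on the same strand. Mir191 (chromosome 9, 108568319 to 108568392) lies in the span of Dalrd3 and had 3, 3, 8, 7, 2 and 4 reads in NEO 1 to 6 and 0, 6, 4, 2, 3 and 1 in SENS 1 to 6. Levels averaged 563 ± 361 CPM among NEO libraries and 196 ± 147 CPM among SENS libraries (SD, n = 6 per group). NEO 3, NEO 4 and NEO 6, at 1119, 888 and 516 CPM, lay above every SENS library, of which SENS 2 was the highest at 385 CPM. NEO 1, NEO 2 and NEO 5 lay within the range of SENS. Mir677 (chromosome 10, 128085286 to 128085363) lies in the span of Atp5b, which encodes a subunit of mitochondrial ATP synthase. It had between 0 and 6 reads in NEO and between 0 and 8 in SENS, with means of 339 ± 237 and 292 ± 213 CPM (SD, n = 6 each).

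Mir212 and Mir132 are made from a shared primary transcript, which CREB is known to induce in active neurons. The pair held 63 reads in all. The sums were 3, 8, 2, 4, 2 and 1 reads in NEO 1 to 6 and 2, 3, 5, 9, 11 and 13 in SENS 1 to 6. SENS 4, SENS 5 and SENS 6 had the most, NEO 2 came next, and the remaining libraries of both groups overlapped. Depth changes this order: Mir132 was at 359 CPM in NEO 2 and at 219 CPM in SENS 6, the library with the most reads. Mir212 averaged 219 ± 131 CPM among NEO and 341 ± 244 CPM among SENS libraries, and Mir132 151 ± 169 and 202 ± 96.8 CPM (SD, n = 6 per group). Neither passed: the log2 fold change on the log2(CPM + 1) scale was 0.42 (SE 1.87) for Mir212 and 3.39 (SE 2.33) for Mir132, both with an adjusted p of at least 0.745 in limma over all genes. For Mir212 the direction changed without NEO 1 or without SENS 5, to −0.90 and to just below 0 respectively. Mir132 was singled out for its place beside Mir212 after its values were seen.

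Mir137, a brain microRNA of neuronal differentiation, had 37 reads. They were 2, 3, 7, 0, 1 and 1 in NEO 1 to 6 and 0, 1, 5, 10, 7 and 0 in SENS 1 to 6, so both groups held empty libraries and libraries with 7 or more reads. Mir423, in the span of Nsrp1 on the same strand, had 30 reads, with 7 in NEO 2 and 7 in SENS 6. Mir695, which lies opposite Pigu on the other strand, was above 0 in 11 libraries, with 14 reads in NEO and 7 in SENS. Mir760, above 0 in the same number of libraries, had 10 reads in each group.

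**Figure D2:**
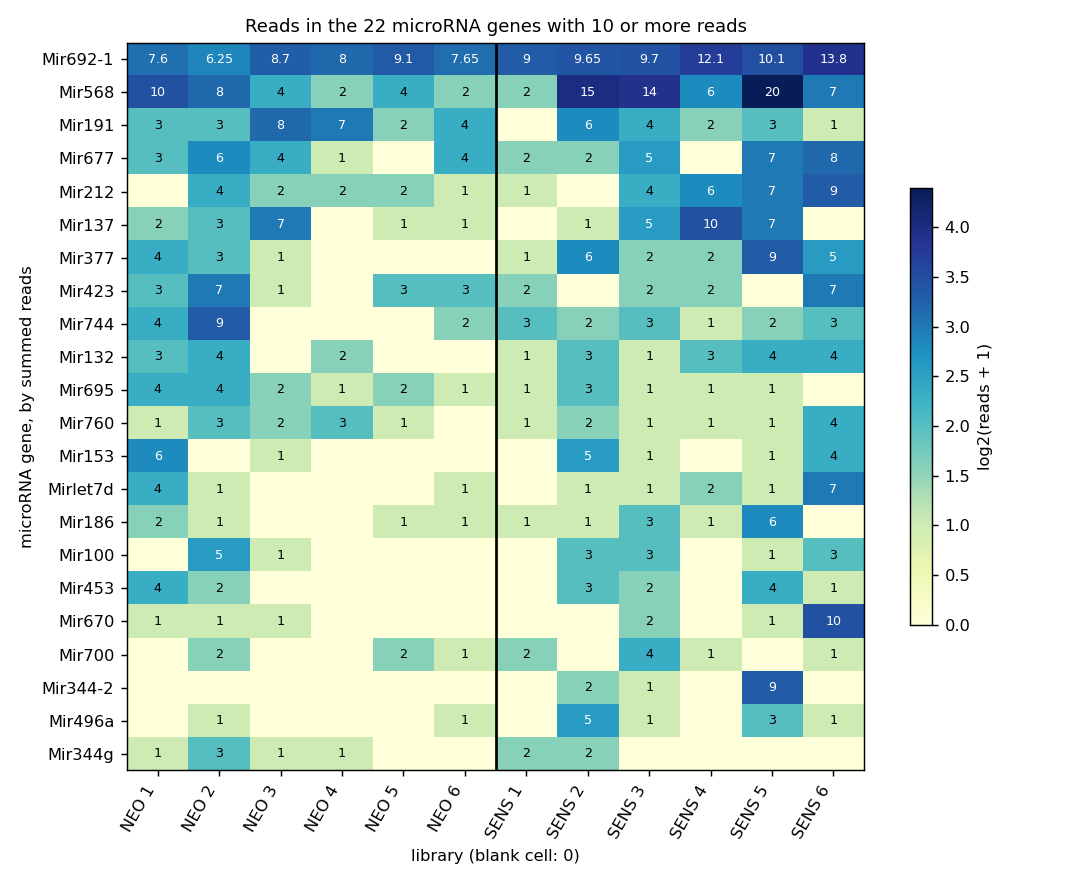
Reads in each of the 12 libraries (columns, NEO left of the black line and SENS right of it) for the 22 microRNA genes with 10 or more reads (rows, ordered by summed reads), with the number of reads printed in each cell and colour on a log2(reads + 1) scale. Mir692-1 and Mir568 alone have reads in all 12 libraries, and in the lower rows a few libraries hold most of the reads, such as SENS 5 for Mir344-2 and SENS 6 for Mir670.

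The imprinted Dlk1-Dio3 domain on chromosome 12 carries the largest group of microRNA genes in the table. Its microRNAs are transcribed from the maternal chromosome and are found mainly in brain. Here 34 genes, from Mir673 to Mir369 (109571990 to 109743496), spanned 171.5 kb, of which 24 were above 0 and 10 were at 0 in all libraries. Together they held 125 reads, 12.5% of the reads of the 198 genes. The reads lay mostly at the distal end: the 7 genes within the span of Mirg, the long noncoding host transcript there, were all above 0 and held 68 reads. The other 27 genes of the domain held 57, and the median per gene was 3 within the Mirg span and 1 outside it.

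Mir377, Mir453 and Mir496a held 61 of the 68 reads in the Mirg span. Mir377 (chromosome 12, 109740510 to 109740577) had 4, 3, 1, 0, 0 and 0 reads in NEO 1 to 6 and 1, 6, 2, 2, 9 and 5 in SENS 1 to 6. It was thus above 0 in 6 of 6 SENS libraries and in 3 of 6 NEO libraries, while NEO 1 and NEO 2 were within the range of SENS. Levels averaged 133 ± 166 CPM among NEO libraries and 310 ± 235 CPM among SENS libraries (SD, n = 6 per group). In limma its log2 fold change was 4.01 (SE 2.25, unadjusted p = 0.0781, adjusted p = 0.745), a value set mainly by the 3 NEO libraries at 0. Mir453 had 6 reads in NEO and 10 in SENS, and Mir496a had 2 and 10.

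Summed over the domain, levels were highest in the libraries with the most microRNA genes above 0 (46 to 59), a count that includes the domain's own genes. Domain levels did not follow the summed microRNA level throughout. NEO 3, at 8069 CPM over all microRNA genes, was at 140 CPM in the domain, and SENS 2, at 6883 CPM, was at 1411 CPM. The domain's reads were 16, 20, 1, 4, 0 and 2 in NEO 1 to 6 and 1, 22, 19, 2, 28 and 10 in SENS 1 to 6. The domain's summed level averaged 711 ± 772 CPM for NEO and 1002 ± 867 CPM for SENS (SD, n = 6 per group), so each SD was about as large as its mean and the groups overlapped. SENS 5, NEO 2, NEO 1, SENS 3 and SENS 2 lay between 1411 and 2326 CPM and the other 7 libraries between 0 and 546 CPM. Of the 24 genes tested, 12 had a log2 fold change above 0 and 12 below 0.

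**Figure D3:**
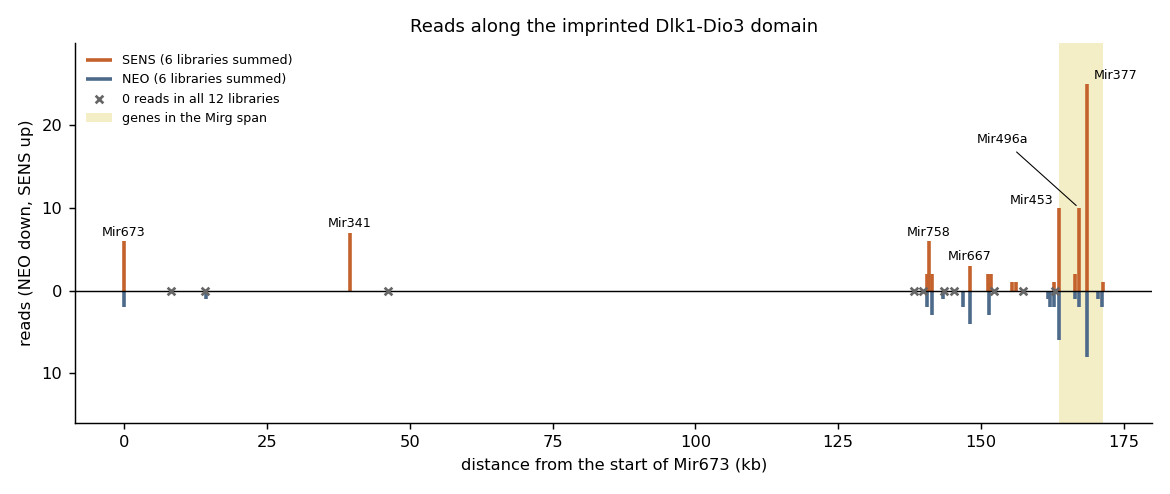
Reads summed over the 6 SENS libraries (upward, orange) and the 6 NEO libraries (downward, blue) for the 34 microRNA genes of the Dlk1-Dio3 domain, against the distance from the start of Mir673 in kb. Grey crosses mark the 10 genes at 0 in all libraries, and the shaded stretch holds the 7 genes in the Mirg span, where Mir377 has 25 reads in SENS and 8 in NEO.

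MicroRNA genes often lie in clusters that are transcribed together. When genes at most 10 kb from the next were joined, 79 of the 198 fell into 19 chains and 119 stood alone. Reads were found for 53 of the 79 genes in chains (67.1%) and for 88 of the 119 alone (73.9%). The largest chain ran from Mir411 to Mir369 in the imprinted domain, with 28 genes, of which 21 were above 0, and 109 reads. Detection within a chain was uneven: of the 5 genes from Mir302b to Mir367 only Mir302b was above 0, with 2 reads, both in NEO 2.

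The Mcm7 cluster of Mir25, Mir93 and Mir106b, a paralog of the Mir17-92 cluster that promotes cell cycle entry, had reads in all 3 genes. It lies on chromosome 5 (138165321 to 138165818) on the strand of Mcm7. Its 14 reads were 0, 1, 1, 0, 1 and 0 in NEO 1 to 6 and 1, 2, 0, 3, 1 and 4 in SENS 1 to 6. The 10 reads of the 2 genes with the seed AAAGUGC fell 1 in NEO and 9 in SENS, while Mir25 had 2 in each group. These are few reads over hairpins that were not told apart from the host transcript, and SENS had more reads in all. The split is thus no result about the seed. Mir34b and Mir34c, targets of p53 that lie 0.612 kb from end to end on chromosome 9, had 8 reads in SENS and none in NEO. Over the 6 NEO libraries a count of 0 allows 3 reads, and the SENS level of Mir34b, with 5 reads, was 1.08-fold that limit. Such a ratio takes the SENS reads as exact, so it is no lower bound on a difference. Without SENS 5 or without SENS 6, 3 reads remained and Mir34b was under the limit. Mir34c, with 3 reads, was under that limit and no fold is given.

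Most of the genes lie inside another annotated gene. The annotation gave 108 within the span of a protein-coding gene, of which 75 were above 0, and 27 within a long noncoding RNA gene, of which 20 were above 0. A further 59 lay in no other gene, of which 42 were above 0, and 4, all above 0, in genes of other types. The share above 0 was thus between 69.4% and 74.1% in the first 3 classes. Exons are not part of the annotation used, so introns and exons were not told apart.

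Genes were then grouped by the cell types and families they are known for, counting those in the table. In the let-7 family, which holds back proliferation and is itself blocked by Lin28a, 4 of 8 genes were above 0, with 24 reads. Mirlet7d had 18 of them, with 4 in NEO 1 and 7 in SENS 6, and Mirlet7c-1, Mirlet7e, Mirlet7g and Mir98 were at 0 in every library. Lin28a, the only gene of the microRNA processing machinery analysed here, had 5 reads over the NEO libraries and 10.5 over the SENS libraries, with 9.5 in SENS 6.

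Neuronal microRNA genes held more reads than any other list, but the lists differ in length and in how much of them is in the table. The neuronal list had 30 named entries and 21 genes in the table, the list for endothelium and vessel wall 12 and 5, and the muscle list 12 and 3. Totals of reads therefore do not rank the cell types. Of 21 such genes, 20 were above 0, with 163 reads, and their summed level averaged 1205 ± 753 CPM for NEO and 1270 ± 568 CPM for SENS (SD, n = 6 per group). Besides Mir212, Mir132 and Mir137 the list held Mir7-1, Mir7-2 and Mir7b, which share the seed GGAAGAC and had 9 reads in all. Mir9-1, a regulator of neural progenitors, had 3 reads, all in NEO 2 and NEO 4. Of the 20 tested, 9 had a log2 fold change above 0 and 11 below 0, and none was called.

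Of 10 genes named in the literature on POMC cells, 8 were above 0, with 21 reads. Mir7b had 5 reads and Mir218-1 had 4, while Mir30a and Mir342 were at 0 in all libraries. Summed, they averaged 164 ± 166 CPM for NEO and 166 ± 213 CPM for SENS (SD, n = 6 per group). With 4 genes on either side of 0, this list showed no common direction.

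Lists for other cell types had few genes in the table and few reads. Whether the listed genes are specific to these cell types was not tested. For oligodendrocytes and astrocytes 5 of 6 genes were above 0, with 8 reads. Mir219a-2, a gene of myelinating cells, had 4 and Mir338 was at 0. For blood cells and microglia 1 of 3 was above 0, Mir144 with 2 reads in NEO 3 and none in SENS, while Mir150 and Mir486 were at 0. That list had 18 named entries, so most of its markers could not be seen here. Mir155hg, the host transcript of the marker Mir155, is outside the naming rule and held 13 reads in NEO and 2 in SENS. These few reads therefore do not show how much of the RNA came from such cells. In the list for endothelium and vessel wall 3 of 5 genes were above 0, with 21 reads. Mir100 held 16 of them and Mir125a 4, all 4 in SENS 2. The defining gene Mir126a was at 0, so the reads of this list do not mark endothelium. Muscle genes had 2 reads in all, 1 each in Mir1b and Mir208b.

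Epithelial genes had 5 reads, all in SENS, 4 in Mir215 and 1 in Mir194-1. For pluripotency and germline 4 of 8 genes were above 0, with 11 reads, 8 of them in the Mir34b and Mir34c pair. The rodent repeat family named Mir297, Mir466, Mir467 and Mir669, many of whose near-identical copies fill an intron of Sfmbt2, had 7 of 15 genes above 0, with 17.2 reads. Of the 15, Mir297-1, Mir466i, Mir466q, Mir467f and Mir669n lie outside Sfmbt2. Mir466i, in the span of Cdk13, and Mir466o, in that of Sfmbt2, led with 5 and 4 reads. Counts of single copies are uncertain where reads match several.

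The comparison of SENS with NEO asked whether any of these genes differed in level after food was sensed. limma, on log2(CPM + 1) with Benjamini-Hochberg adjustment over all genes, called none of the 141 microRNA genes tested, and the smallest adjusted p among them was 0.745. Over all 5141 genes tested it called 0 as well (0% called). At an unadjusted p under 0.05 there were 2 microRNA genes (1.42%), both higher in SENS, against 189 of all genes (3.68%). Of all genes 1.83% were higher in SENS and 1.85% lower at that level. Detection differs between these shares: no microRNA gene above 0 in only 1 library had a p below 0.285 in limma. Such genes were 63 of the 141 microRNA genes above 0 and 1222 of the 5143 genes of the table above 0. The lower share is therefore no result about microRNA genes. The number of microRNA genes under 0.05 was 4 without SENS 1 or without SENS 4 and 1 without SENS 3 or without SENS 5. It was 0 without SENS 2 or without any 1 of the NEO libraries. None of the 198 genes had groups that did not overlap, beside 5 of the 5764 genes of the table (0.0867%).

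Both genes under 0.05 had no read in NEO. Mir341, in the imprinted domain within the span of Rian (chromosome 12, 109611500 to 109611595), had 1, 3, 1 and 2 reads in SENS 2, 3, 5 and 6. Its log2 fold change was 4.50 (SE 2.16, unadjusted p = 0.0398, adjusted p = 0.745), which depends on the pseudocount. Its SENS level was 1.52-fold the limit of 3 reads over the NEO libraries, and 1.04-fold without SENS 3. That ratio takes the SENS reads as exact and is no lower bound on a difference. Mir93 had 1 read each in SENS 1, 2, 4 and 6 (log2 fold change 4.21, SE 2.08, unadjusted p = 0.0455, adjusted p = 0.745). With 4 reads it lay under the limit that 0 reads in NEO allow, so no fold is given. Such p-values therefore mark how many libraries held a read at all.

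Mir377, described above with 33 reads in 9 libraries, was also among the 6 genes with the smallest p in this direction. The others, Mir344-2, Mir758 and Mir34b, had reads in SENS alone. Mir344-2 had 12 reads, 9 of them in SENS 5, and its SENS level was 2.60-fold the limit. Without SENS 5 only 3 reads remained, and the ratio to the limit was 0.767, so no fold is left. Mir758 had 6 reads, 2 each in SENS 2, 3 and 5, at 1.30-fold the limit, and at 1.02-fold without SENS 5. Among genes lower in SENS, Mir191 had the smallest p, with a log2 fold change of −2.54 (SE 1.46, unadjusted p = 0.0853, adjusted p = 0.745). It was −1.27 without SENS 1, the only library in which Mir191 was at 0. Mir9-1, Mir466f-2, Mir452 and Mir495, with 3, 2, 2 and 2 reads in NEO and none in SENS, came next. The NEO level of Mir9-1 was 1.54-fold the limit of 3 reads over the SENS libraries, and those of the other 3 genes were 1.03-fold that limit. So few reads pass it because SENS had more reads in all. Mir695 followed with −2.30 (SE 1.84, unadjusted p = 0.215 in limma), which was −1.17 without SENS 6, its only library at 0.

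**Figure D4:**
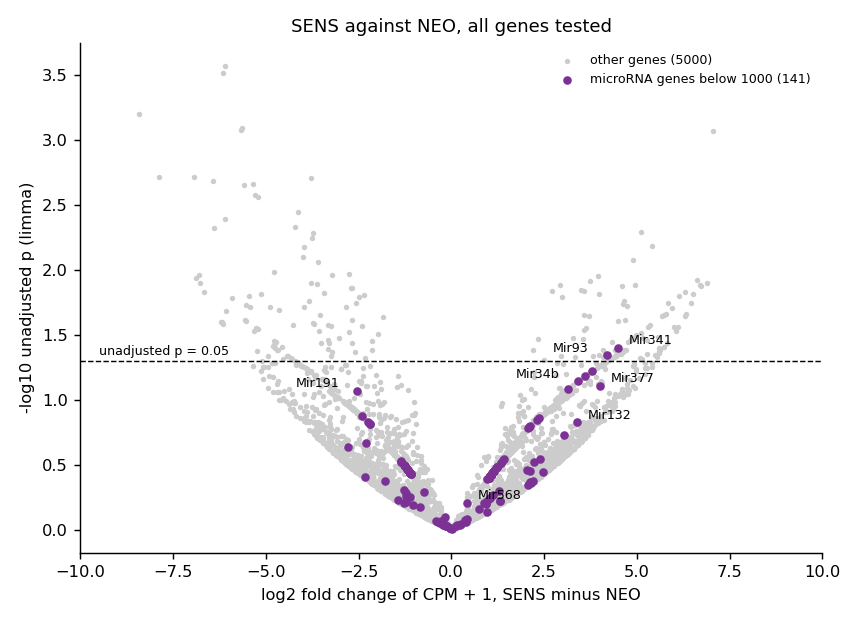
Log2 fold change of CPM + 1, SENS minus NEO (horizontal), against −log10 of the unadjusted limma p (vertical) for 141 microRNA genes (purple) and the 5000 other genes tested (grey), with a dashed line at the 0.05 threshold. Only Mir341 and Mir93 among the microRNA genes lie above the line, and curved bands are formed by genes with reads in few libraries.

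Directions leaned to SENS in the microRNA genes to about the same degree as in the table. A log2 fold change above 0 was found for 83 of the 141 genes (58.9%), beside 57.0% of all genes, and the median was 0.94, beside 0.39. That median was carried by genes with reads in SENS alone. Over the 63 genes with reads in both groups it was 0.13, with 33 above 0 and 30 below. For a second median, the 18 genes that exceeded the 3-read limit of an empty group were set to the signed log2 ratio to it. The 60 under it were left out, and the median over 81 genes was −0.04. This second median leans to NEO by its construction: with fewer reads in NEO, 2 reads in NEO alone passed the limit, while 5 were needed in SENS alone, and 12 of the 18 genes kept had reads in NEO alone. The sign of the fold change also depended on the scale for a few genes: in 8 of the 141 it was opposite to the difference of mean CPM, among them Mir137, Mir744, Mir760 and Mir153. Mir744 and Mir153 are named for this pattern alone, after their values were seen.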

How the data were processed

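Libraries of 6 NEO and 6 SENS samples were used. The authors deposited CPM values; per the submitters' processing notes, FastQC, HISAT2, featureCounts and edgeR were used, with the builds GRCm38 and mm10, and no versions are given. How the table's genes were selected and how reads matching several places were treated is not given in the sources used here. Reads were recovered by dividing each column by its commonest value above 0. Since part of the values came out as fractions, the test was on CPM and not on counts. SENS was compared with NEO with limma 3.58.1 in R 4.3.3 (moderated variance with a trend, no covariate, two-sided) on log2(CPM + 1) for genes averaging 1 CPM or more, with Benjamini-Hochberg adjustment over all 5141 genes and a threshold of 0.05. The fit was tested on simulated data in which 200 genes were changed, all of higher mean CPM than most of the microRNA genes. How well it finds changes at the level of most microRNA genes was not tested. Fold changes on this scale depend on the pseudocount wherever a library is at 0.

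The naming rule and the gene lists were chosen with earlier results of these data known. Named genes are the 8 with most reads, the 6 per direction with the smallest unadjusted p, those above 0 in at least 10 libraries, and the 2 with most reads of each list and of each chain of at least 3 genes. Coordinates and sequences come from RefSeq's GRCm38.p6 tables, and 180 of the 198 genes were in its microRNA table.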

Additional observations from a re-analysis of the deposited data

Results flagged for a closer look

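For the named genes with 10 or more reads, the number of genes above 0, their summed CPM and the reads of the imprinted domain, 33 sets of 6 libraries (1 measure in 1 group) were tested for a library far from the others, by the gap to its nearest neighbour over the whole range against Dixon's 95% critical value. There were 7 such libraries. The critical value assumes normal values, while the gene sets are small read numbers with ties, not scaled for depth. The share of sets that chance alone marks is therefore not known. In the SENS group Mir423 had 7 reads in SENS 6, Mir344-2 had 9 in SENS 5, Mir695 had 3 in SENS 2, Mir760 had 4 in SENS 6 and Mirlet7d had 7 in SENS 6. In the NEO group Mirlet7d had 4 reads in NEO 1 and Mir100 had 5 in NEO 2. SENS 6, which accounts for 3 of the 7, is also the library with the most reads in the table, 18299, and the part of depth in these values was not tested.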

How the results depend on the processing

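Under all 21 alternatives no microRNA gene was called. The number with an unadjusted p under 0.05, 2 in the reported fit, was 0 with a pseudocount of 50 or of 200 CPM, 0 with a mean of at least 100 CPM required, 0 with quantile scaling and 6 without a variance trend. It ranged from 0 to 4 when each library was left out in turn. It was 2 with the replicate number as a block. Same-numbered libraries did not deviate together (0 of 6 pairs above a correlation of 0.1, and 2 of 12 libraries correlated best with their own number). With few reads per gene this check could miss a pairing, so whether the numbers pair the samples is not known. With a mean of at least 100 CPM required, 18 genes were tested and 12 had a log2 fold change above 0, a smaller number because fewer genes entered. The difference in summed CPM ranged from −572 to 990 CPM over the libraries left out. Log2 fold changes of 10 named genes changed sign when libraries were left out: Mir677 ranged from −1.58 to 1.21, Mir212 from −0.90 to 1.84, Mir137 from −2.36 to 0.085, Mir760 from −0.91 to 0.81, Mirlet7i from −1.10 to 1.13, Mir7b from −1.28 to 0.63, Mir466i from −1.19 to 0.71, Mir466o from −1.17 to 1.30, Mir25 from −1.11 to 0.73 and Mirlet7f-1 from −1.08 to 1.04. Mir137 was also at 0.019 with a pseudocount of 200 CPM, and Mir760 at −0.30 with 50 CPM, −0.24 with 200 CPM and −0.46 with quantile scaling; the cause was not tested. With a largest gap of 3 kb there were 18 chains, and with 50 kb there were 24. The ratios to the limit for Mir344-2, Mir34b, Mir341 and Mir758 with single libraries left out were added after seeing the data. The median SE of the log2 fold changes was 1.52 over the 141 genes.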
